A study of Mus musculus with 20 samples.

Results

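The comparison concerns 10 of the 20 arrays of the series: 5 arrays of MEFs (fibroblasts cultured from mouse embryos) kept with serum of 8 Gy mice, and 5 kept with serum of non-irradiated mice, both of the 20-day set. The arrays were chosen by their titles. All cultures had mouse serum for 24 hours, and all serum donors were female C3H/HeN mice, an inbred strain. The donors of the control arrays had received 0 Gy and those of the other arrays 8 Gy, given as L/MDR, which the labels do not spell out, nor do they say whether the 20 days are an exposure time or a waiting time. The other 10 arrays hold the 10-day set, with serum of 4 Gy mice (5 arrays) and of its own non-irradiated controls (5 arrays), and serve here only as a comparison. Ages of the donors, the strain and number of the embryos, pooling of serum and the serum concentration are not given in the sources used here. Nothing says that the 5 arrays of a group came from separate cultures or donors, so p-values rest on an array-to-array spread that may be technical only.

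Serum carries hormones, growth factors and cytokines, and fibroblasts answer to many of them. Interleukin-6 and its relatives signal through STAT3, and tumour necrosis factor and interleukin-1 through NF-kB, and both routes switch on acute phase genes, secreted defence proteins best known from liver but also made by fibroblasts. Growth factors in serum switch on immediate early genes such as Egr1 and Myc. Chaperones and degradation factors of the endoplasmic reticulum (ER) are switched on together by the unfolded protein response, which senses the load of secretory proteins.

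RNA was hybridised to 1-colour Agilent arrays of 41174 distinct probes. Signals are log2 intensities minus the 75th percentile of the array, so a level of 0 is the brightness that 1 probe in 4 exceeds. Levels of different probes are not comparable with each other. In the 20-day set the 75th percentile was 916 ± 134 intensity units on control arrays and 939 ± 57.1 on 8 Gy arrays (SD, n = 5 each), and 56.8% to 64.1% of probes were well above background. Control arrays 1 to 3 lay on 1 slide and control arrays 4 and 5 on another, and the 8 Gy arrays were divided in the same way over another 2 slides, so no slide held both groups. A difference between the serums therefore cannot be told apart from a difference between slides, and this holds for every rise and fall given below. The 3 control arrays of the first slide had fewer probes above background (56.8% to 60.0%) than the other control arrays (62.3% to 64.1%) and a higher signal on negative control spots (42 to 45 against 36.5 to 37.5 intensity units). Correlations between arrays of a group were 0.978 to 0.994 among control arrays and 0.993 to 0.997 among 8 Gy arrays. Of 8 spike-in probes, which report RNA added in fixed amounts at labelling, all were lower on 8 Gy arrays by 0.34 to 1.06 (log2), and for 6 of them the 5 control arrays lay above all other 15 arrays of the series. The cause was not tested.

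**Figure D1:**
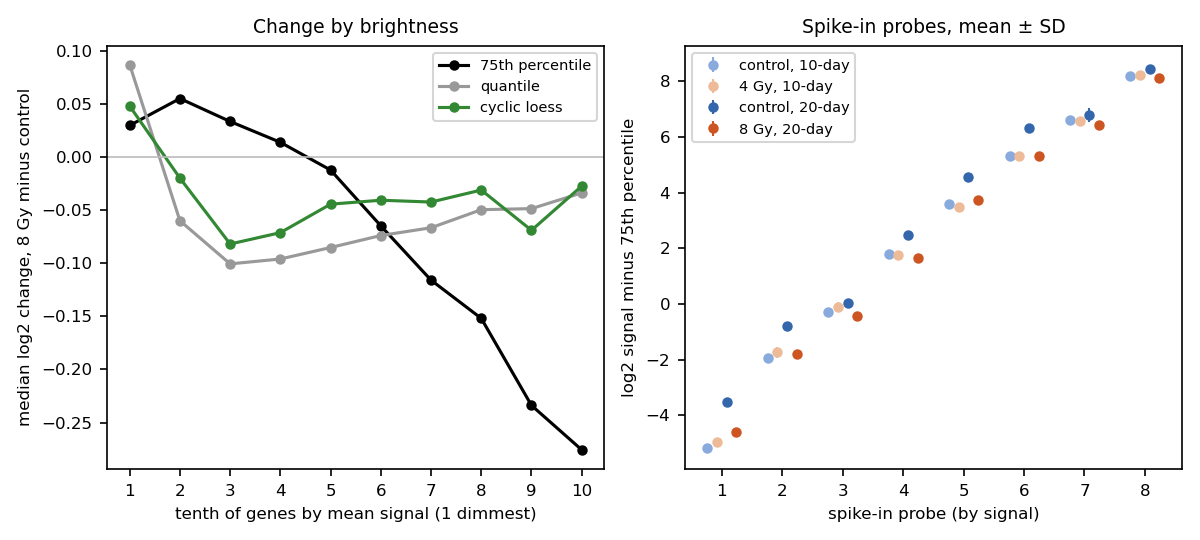
Left, median log2 change (8 Gy minus control serum, 20-day set) in 10 equal groups of genes ordered by mean signal, under 3 normalisations; with the 75th percentile it runs from 0.03 in the dimmest group to −0.28 in the brightest. Right, log2 signal of 8 spike-in probes relative to the 75th percentile (mean ± SD over 5 arrays per group); the 20-day control arrays sit above the other groups.

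The change between the 2 serums depended on brightness. Genes were ordered by mean signal and divided into 10 equal groups. The median log2 change was 0.03 in the dimmest group, −0.01 in the fifth and −0.28 in the brightest, where 54.1% of genes fell and 4.5% rose. Cyclic loess, which removes such trends with brightness, left a median of 0.05 in the dimmest group and −0.03 in the brightest. For this reason the change under cyclic loess is given beside the change on the 75th percentile scale for gene groups that are bright.

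Of 20229 genes tested, 9312 (46.0%) passed an adjusted p of 0.05, 3493 upward (17.3%) and 5819 downward (28.8%). Upward changes reached 2-fold in 656 genes and downward changes in 200. Scaling to the array median gave 2364 upward and 8087 downward calls, and scaling to the spike-ins 15760 upward and 100 downward. The median change of all genes was −0.09, and these scalings moved every change by −0.14 and 0.74. A fall of less than 0.74 is therefore a fall relative to the bulk of the signal on an array, and turns into a rise on the spike-in scale. All 8 Gy arrays lay above all control arrays in 1834 genes (9.16%) and below them in 3794 (18.9%). With the 10-day set as a reference, the 20-day control arrays lay below the other 15 arrays in 1216 genes (6.08%) and above them in 2584 (12.9%), while the 8 Gy arrays lay above the other 15 in 284 genes (1.42%) and below them in 637 (3.19%). Genes are described below with the group that stood apart, where 1 did. Because RNA came from whole cultures, fewer cells of a type and less RNA per cell cannot be told apart.

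Acute phase genes were among those that rose with 8 Gy serum. Of 13 tested acute phase genes 5 rose and 1 fell, with a median change of 0.54 against −0.09 for all genes, of which 17.3% rose and 28.8% fell. Lcn2 (chromosome 2, 32384637 to 32387739, as the other positions from RefSeq on GRCm38.p6) encodes lipocalin-2, which binds bacterial siderophores. Its signal was −3.85, −2.11, −5.57, −6.20 and −3.61 on control arrays 1 to 5 and −1.87, −0.64, −1.18, −0.49 and −1.11 on 8 Gy arrays 1 to 5. Every 8 Gy array lay above every control array, and the control arrays were spread widely, from array 4 at −6.20 to array 2 at −2.11. The log2 change was 3.21 ± 0.85 (SE), 9.23-fold, with an adjusted p of 0.00492 in the limma fit. Saa3 (chromosome 7, 46711998 to 46719615), a serum amyloid A gene of macrophages and stromal cells, gave 0.65, 2.90, 0.78, 0.07 and 1.80 with control serum and 2.42, 4.40, 3.77, 4.12 and 3.43 with 8 Gy serum, and control array 2 lay within the 8 Gy range (change 2.39 ± 0.74, adjusted p = 0.0126). Saa1, the liver form, overlapped too: its control values were −0.83, 0.30, −1.72, −1.21 and 0.02, its 8 Gy values 0.11, 1.44, 0.85, 2.18 and 1.59 (change 1.92 ± 0.63, adjusted p = 0.0176). With the slide as a random block these 3 changes did not pass (adjusted p = 0.0509 for Lcn2, 0.091 for Saa3 and 0.083 for Saa1).

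Protease inhibitors of the acute phase gave tighter values. Serpina3n (chromosome 12, 104406646 to 104414334) encodes an antichymotrypsin-like inhibitor that interleukin-6 raises. It lay at −0.09, 0.33, −1.48, −1.74 and −0.83 with control serum and at 0.57, 1.04, 1.08, 1.73 and 0.92 with 8 Gy serum, with no overlap, and its change of 1.83 ± 0.40 passed also with the slide block (adjusted p = 0.00112, and 0.015 with the block). Its neighbour Serpina3f had 8 Gy levels (−1.32, −0.53, −0.66, −0.01 and −0.75) above all other 15 arrays of the series, against −2.54, −1.95, −3.23, −2.87 and −1.86 on control arrays. Both of its probes rose, by 1.84 and 2.17. These are members of a cluster of near-identical genes, so their signals may be shared. Ceruloplasmin (Cp), a copper carrier and ferroxidase, had −0.39 to 1.29 on control arrays and 1.23 to 1.71 on 8 Gy arrays, where only control array 2 entered the 8 Gy range (change 1.11 ± 0.24, adjusted p = 0.000988). Haptoglobin (Hp), which binds free haemoglobin, had 0.91 to 3.29 on control arrays and 3.15 to 3.76 on 8 Gy arrays and did not pass (change 1.42 ± 0.60, adjusted p = 0.062); without control array 2 it was 1.71 (adjusted p = 0.0329). Haemopexin (Hpx), which binds haem, was the member that fell, by 0.36 ± 0.14 (adjusted p = 0.0488), a call that was lost when any of 6 single arrays was left out (8 Gy array 2, 3 or 5, control array 2, 3 or 4), with changes of −0.38 to −0.29. Camp, an antimicrobial peptide precursor outside this list, rose by 1.79 ± 0.44 (adjusted p = 0.003). Lbp, which carries bacterial lipopolysaccharide and was chosen after its values were seen, rose by 1.76 ± 0.28 (adjusted p = 5.38e-05), and its control arrays (−3.08 to −1.14) lay below the other 15.

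**Figure D2:**
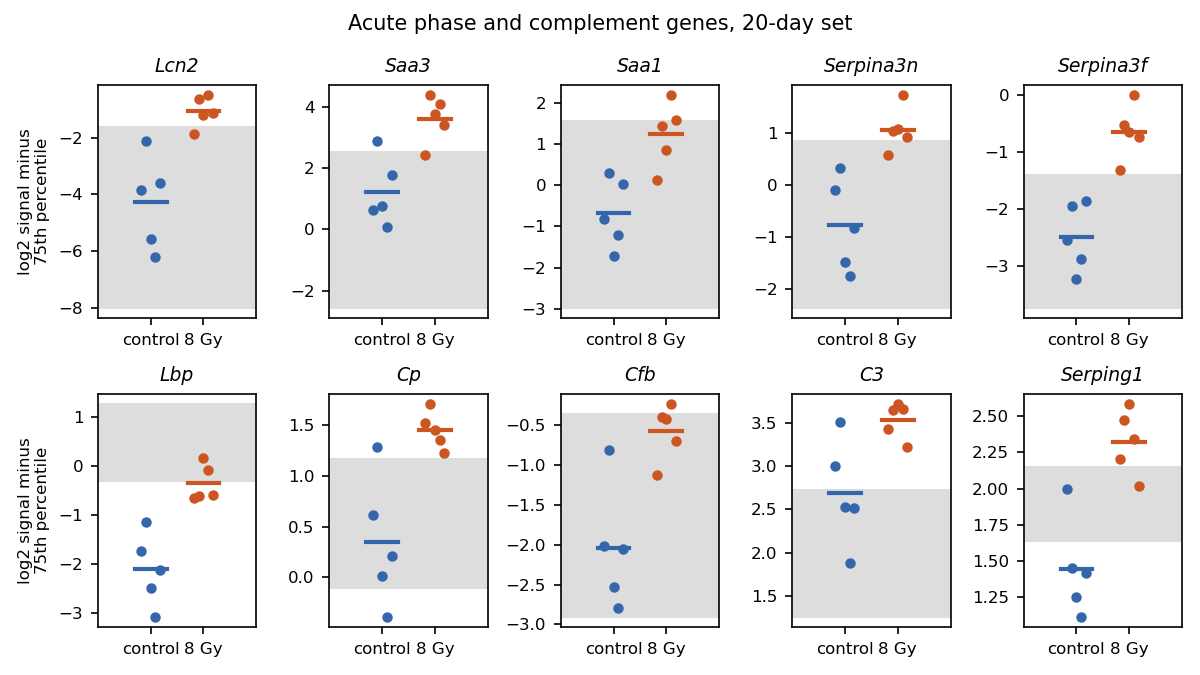
Log2 signal relative to the 75th percentile for 10 acute phase and complement genes on the 5 control (blue) and 5 8 Gy (orange) arrays, in order of array number; horizontal lines are group means and grey bands span the 10 arrays of the 10-day set. Lcn2, Serpina3n, Serpina3f, Lbp and Serping1 have no overlap between groups, and control array 2 is high for several others.

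Of 21 tested complement genes 5 rose and 3 fell (median 0.25), against 17.3% and 28.8% of all genes. With normexp 4 rose and 0 fell, with the slide as a random block 3 rose and 2 fell, and scaled to the array median 5 rose and 4 fell. Factor B (Cfb), the protease of the alternative pathway, lay at −2.02, −0.81, −2.53, −2.79 and −2.05 on control arrays and at −1.12, −0.40, −0.42, −0.23 and −0.70 on 8 Gy arrays, a change of 1.47 ± 0.37 (adjusted p = 0.0035). C3, the central component, had 1.88 to 3.51 on control arrays and 3.22 to 3.72 on 8 Gy arrays (change 0.85 ± 0.25, adjusted p = 0.0105, and 0.0627 with the slide block), and its other probe gave 0.71 (adjusted p = 0.0888). The first-component protease C1s1 and its inhibitor Serping1 rose by 0.87 ± 0.19 and 0.88 ± 0.14 (adjusted p = 0.000945 and 8.42e-05), and Serping1 had no overlap between the groups (1.12 to 2.00 and 2.02 to 2.58). C2, the classical pathway partner of factor B, fell by 0.67 on its brightest probe (adjusted p = 0.000204), while its other probe rose by 0.39 (adjusted p = 0.0157), so no direction can be given for C2.

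Genes upstream of the acute phase response were measured with smaller changes. Of 20 tested interleukin-family genes 7 rose and 3 fell (median 0.27), and of 17 NF-kB subunits and inhibitors 7 rose and 1 fell (median 0.19, and 0.32 with cyclic loess). Of all genes 17.3% rose and 28.8% fell. With the slide as a random block 3 interleukin-family genes rose and 2 fell, and scaled to the array median 5 rose and 4 fell. Il6 itself lay at −0.47, −0.27, −0.27, −1.43 and 0.34 with control serum and 0.12, 0.29, 0.28, 0.82 and 0.82 with 8 Gy serum, with control array 5 above 8 Gy arrays 1 to 3. Its change of 0.89 ± 0.35 was near the threshold (adjusted p = 0.0447, and 0.166 with the slide block), and it was lost when any of 8 single arrays was left out (0.64 to 0.94, adjusted p = 0.0552 to 0.129). Clcf1, a ligand of the same family, rose without overlap, from −1.47, −1.80, −2.12, −2.16 and −1.53 to −0.55, −0.85, −0.68, −0.61 and −0.62 (change 1.15 ± 0.11, adjusted p = 4.17e-07); the 8 Gy arrays were above and the control arrays below all others. The receptor gene Il6ra rose on both of its probes, by 1.40 ± 0.17 and 1.30, and its control arrays (−5.43 to −4.44) lay below the other 15. Socs3, the feedback inhibitor that STAT3 switches on, changed by 0.83 ± 0.22 (adjusted p = 0.00479) with 8 Gy array 2 inside the control range. Stat3 changed by 0.39 ± 0.14 (adjusted p = 0.029), and this call was lost without any of 5 single arrays and with the slide block (0.0652). Il33, an alarmin, changed by 0.85 ± 0.27 (adjusted p = 0.0156, and 0.1 with the block), and its 8 Gy array 1 lay among the control arrays. Tslp, an epithelial and stromal cytokine, fell by 0.68 with no overlap (−0.67 to −0.50 and −1.39 to −1.16, adjusted p = 2.42e-06).

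Within NF-kB, Nfkb2, the precursor of p52, lay at 0.65, 0.78, 0.68, 0.44 and 0.74 on control arrays and at 1.34, 1.41, 1.36, 1.44 and 1.45 on 8 Gy arrays. The groups did not overlap, and the change was 0.74 ± 0.10 (adjusted p = 9.74e-06). Bcl3, a nuclear partner of p52 and p50, changed by 0.75 ± 0.18 (adjusted p = 0.00246), and its 8 Gy arrays (2.00 to 2.24) were above all other 15. Rela, the main activating subunit, rose on both probes, by 0.46 ± 0.12 and 0.96. When the arrays of a slide were averaged, Bcl3 and Rela did not pass (adjusted p = 0.114 and 0.127). The kinase genes Ikbke and Ikbkb rose by 0.85 ± 0.08 and 0.91 ± 0.21 (adjusted p = 1.33e-07 and 0.00167). Nfkbia, the inhibitor that NF-kB itself switches on, had 3.64 to 4.10 on control arrays and 3.75 to 4.14 on 8 Gy arrays and did not pass (adjusted p = 0.301), although it did with cyclic loess (0.32, adjusted p = 0.00431). Icam1, an adhesion molecule and NF-kB target, changed by 1.07 ± 0.21 (adjusted p = 0.000506), and its 8 Gy array 1 (−1.66) lay among the control arrays.

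Chemokines attract leukocytes. Of 25 tested chemokine genes 7 rose and 3 fell (median 0.35), against 17.3% and 28.8% of all genes. With the slide as a random block 2 rose and 2 fell, and scaled to the array median 5 rose and 6 fell (median 0.21). Ccl6, a myeloid chemokine, lay at 0.46, 1.22, −0.16, 0.16 and 0.25 with control serum and at 1.73, 1.40, 1.41, 1.50 and 1.36 with 8 Gy serum, above all other arrays, and changed by 1.09 ± 0.22 (adjusted p = 0.000597). Cxcl12, which holds progenitor cells in their niche, changed by 0.70 ± 0.12 on 4 control arrays, array 2 being left out (adjusted p = 0.000181), and its other probe by 0.22 (adjusted p = 0.0954). The neutrophil chemokines Cxcl1 and Cxcl5 changed by 1.04 ± 0.38 and 1.01 ± 0.38 (adjusted p = 0.0305 and 0.0369). Neither passed with the slide block (0.132 and 0.187), and each lost its call in 6 of the 10 fits that left out 1 array (0.78 to 1.02 for Cxcl1 and 0.69 to 1.01 for Cxcl5). The eosinophil chemokine Ccl11 changed by 1.37 ± 0.43 (adjusted p = 0.0145, and 0.0867 with the block), with 8 Gy array 1 at the level of control array 1 (−3.72 on both). Ccl2, the monocyte chemokine, changed by 0.60 ± 0.27 and did not pass (adjusted p = 0.0814), although it did without control array 2 (0.74, adjusted p = 0.0388). Ccl17 fell by 0.71 without overlap (adjusted p = 0.00115).

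Promoters are shown for Cxcl1 and Il6, genes described above that have a match to the motif of NF-kB. Matches were sought on both strands in the 250 bases before the annotated start, for NF-kB as GGGA and TCC with 3 bases between them and for STAT3 as TTC and GAA with 3 bases between them. Over 27025 genes with a RefSeq promoter (GRCm38.p6) 3.82% held the first and 7.18% the second. Of 18 chemokine genes with a promoter 3 held the NF-kB letters, of 13 interleukin-family genes 2 (Il6 and Csf1), and of 10 acute phase genes 0. The STAT3 letters were held by 3 of the 10 acute phase genes (Apcs, Fgb and Itih4, none of which passed). Outside this list, Serpina3f, Nfkb2, Icam1, Socs3, Lamb2 and H1f4, which rose, and Ccl17 and Eif2ak3, which fell, also held the STAT3 letters. So did 7 of 27 interferon-stimulated genes with a promoter, a list in which 3 of 34 tested genes rose and 8 fell. Nfkbia, which did not pass, held the NF-kB letters. The same letters were held by Grn, Lars2 and Lamb2, which rose, and by Birc5 and Cenpe, which fell on their brightest probes. Csf1 changed by 0.02 (adjusted p = 0.866). The 160 bases before the start are printed 5′ to 3′ in the direction of the gene, with the matched letters in capitals; overlapping matches run together.
Cxcl1: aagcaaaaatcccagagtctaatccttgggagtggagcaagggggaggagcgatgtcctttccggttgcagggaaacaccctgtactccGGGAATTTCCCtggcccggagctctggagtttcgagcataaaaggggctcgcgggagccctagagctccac
Il6: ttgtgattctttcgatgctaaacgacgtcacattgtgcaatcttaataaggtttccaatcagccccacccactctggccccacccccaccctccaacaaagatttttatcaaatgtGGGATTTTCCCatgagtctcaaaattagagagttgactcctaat
These windows lie at chr5:90891085-90891244 (Cxcl1) and chr5:30012954-30013113 (Il6), both on the plus strand, and end at the start of the gene. The window of Socs3, which held the STAT3 letters, precedes a transcript start inside the span of the gene (chromosome 11, 117966079 to 117970336) and is not shown. Cxcl3 and Cxcl10, which also held the NF-kB letters, had changes of 0.61 and −0.05 that did not pass.

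Macrophage markers were at much higher levels in the 20-day set than in the 10-day set, in both of its groups. The summed signal of 17 tested macrophage and myeloid markers (log2 of the summed linear signals) was 5.53 to 5.95 on control arrays and 5.51 to 5.76 on 8 Gy arrays of the 20-day set, and 0.90 to 1.62 in the 10-day set. Between the 2 serums 0 of the 17 rose and 4 fell (median −0.02, and 0.71 on the spike-in scale), against 17.3% and 28.8% of all genes. The count depended on the setting. With quantile normalisation 4 rose and 4 fell (median 0.09), with normexp 2 and 5, and with cyclic loess 1 and 4. Without the 3 control arrays of the first slide 3 rose and 3 fell (median 0.13). Of these markers 16 were well above background on all 5 control arrays and 17 on all 8 Gy arrays, none being at 0. Tyrobp, a signalling adaptor of myeloid cells, had 3.24 to 3.72 on control arrays and 2.45 to 3.10 on 8 Gy arrays (change −0.72 ± 0.13, adjusted p = 0.000233), and its 10-day levels were −2.79 to −2.12. Ptprc (CD45), the common leukocyte antigen, fell by 0.61 (adjusted p = 0.000183), but its other probe gave a change of 0.00 (adjusted p = 0.999). Lysozyme (Lyz2) and the receptor Csf1r did not pass, with changes of −0.05 ± 0.16 and 0.27 ± 0.13, though 1 of the other 2 probes of Csf1r rose by 1.18. The ranges of the summed level overlapped between the 2 serums, and the part of these cells in the changes above was not tested.

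Genes of the unfolded protein response were lower with 8 Gy serum, in the scale of the 75th percentile. On this scale 28.8% of all genes fell and 17.3% rose, and in the brightest of the 10 groups 54.1% and 4.5%. Of 26 tested genes of the response 14 fell and 1 rose, with a median of −0.32. With cyclic loess 10 fell and 2 rose (median −0.12), and under spike-in scaling the median turned to 0.41. In 9 of the 14 the 8 Gy arrays lay below all other 15 arrays, as they did in 630 of all 5819 genes that fell (10.8%). Herpud1, which helps to remove misfolded proteins from the ER, gave 3.98, 3.81, 3.49, 3.52 and 3.50 on control arrays and 2.97, 2.85, 2.72, 3.03 and 2.98 on 8 Gy arrays. The groups did not overlap, and the 10-day arrays lay between them or among the controls (3.32 to 3.68). Its change was −0.75 ± 0.10 (adjusted p = 1.07e-05), and −0.55 with cyclic loess (adjusted p = 0.000181). Syvn1, the ubiquitin ligase of the same degradation route, lay at 4.48, 4.65, 4.29, 4.04 and 4.10 with control serum and at 3.80, 3.49, 3.61, 3.69 and 3.52 with 8 Gy serum, a change of −0.69 ± 0.10 (adjusted p = 2.26e-05), but its other probe gave 0.21 (adjusted p = 0.36). Edem1, which marks glycoproteins for degradation, fell by 0.77 on its brightest probe (adjusted p = 1.23e-05) and rose by 1.05 on another (adjusted p = 0.000347), so its direction is not settled.

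Among chaperones of the ER the falls were smaller in size, and some did not pass. Hyou1 had 3.17 to 3.43 on control arrays and 2.54 to 2.94 on 8 Gy arrays (change −0.60 ± 0.09, adjusted p = 5.46e-05) and Manf, a secreted ER protein, 4.17 to 4.47 on control arrays and 3.83 to 3.96 on 8 Gy arrays (change −0.44 ± 0.08, adjusted p = 0.000133). Calnexin (Canx), a lectin chaperone, lay at 5.42, 5.47, 5.32, 5.41 and 5.25 with control serum and 4.95, 4.98, 4.91, 4.86 and 4.96 with 8 Gy serum, below all other arrays (−0.44 ± 0.06, adjusted p = 7.04e-06); of its other 2 probes 1 fell (−0.32) and 1 did not pass (−0.11). Hspa5 (BiP), the most abundant chaperone of the ER and the usual marker of the response, went from 6.77, 6.53, 6.36, 6.29 and 6.45 to 6.20, 6.34, 6.17, 6.05 and 6.44 and did not pass (change −0.24 ± 0.15, adjusted p = 0.187). Pdia6 and Creld2 fell by 0.31 and 0.34 (adjusted p = 0.00374 and 0.00168), and with cyclic loess their changes were −0.00 and −0.09. The other probes of Pdia6 gave −0.30 and 0.29, each past the threshold, so its direction rests on the probe.

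Sensors and transcription factors of the response did not move as 1 group. The sensor genes Eif2ak3 (PERK) and Atf6 fell by 0.63 and 0.66 (adjusted p = 0.000237 and 2.99e-06), and the second probe of Atf6 by 0.29. Ern1 (IRE1), the third sensor, had 0.18 ± 0.09 and did not pass (adjusted p = 0.103), though it did without control array 1 (0.25, adjusted p = 0.0172). Ddit3 (CHOP) and Chac1, both switched on by ATF4, fell by 0.72 and 0.79 (adjusted p = 7.82e-05 and 0.000293). Ddit3 had 2.45 to 2.97 on control arrays and 1.73 to 2.13 on 8 Gy arrays, and Chac1 3.56 to 4.46 and 2.92 to 3.51, without overlap in either. Atf4 and Xbp1 themselves had −0.24 ± 0.12 and 0.32 ± 0.13 and did not pass (adjusted p = 0.12 and 0.0541), though Xbp1 passed upward without control array 2, 3 or 5 (0.37 to 0.42). Ppp1r15a (GADD34), which ends the translational arrest of the response, was the 1 gene that rose, from 0.21, −0.04, −0.23, 0.07 and 0.00 to 1.07, 0.96, 0.76, 0.89 and 0.76 (change 0.88 ± 0.12, adjusted p = 1.11e-05).

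The ER stress element, CCAAT and CCACG with 9 bases between them, binds ATF6 and NF-Y and marks many genes of the response. Of 23 list members with a RefSeq promoter 8 held these letters in the 250 bases before the start, against 33 of 27025 genes (0.122%). Among the 8 genes 4 fell (Canx, Pdia6, Syvn1 and Creld2) and 4 did not pass (Hspa5, Hsp90b1, Calr and Dnajc3, with changes of −0.24, −0.13, 0.04 and 0.06), and Hsp90b1 fell without control array 1 (−0.40, adjusted p = 0.000636). Other probes of Calr and Dnajc3 passed, at 0.74 for Calr and at 0.64 and −0.35 for Dnajc3. Among the 15 genes without it 7 fell. The median changes were −0.27 with the element and −0.28 without. The promoters of the 4 that fell and of Hspa5 are shown for comparison, 160 bases before the start, with the element in capitals.
Canx: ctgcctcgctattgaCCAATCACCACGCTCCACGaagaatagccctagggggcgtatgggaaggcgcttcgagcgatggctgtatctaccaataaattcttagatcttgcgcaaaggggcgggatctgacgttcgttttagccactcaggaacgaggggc
Pdia6: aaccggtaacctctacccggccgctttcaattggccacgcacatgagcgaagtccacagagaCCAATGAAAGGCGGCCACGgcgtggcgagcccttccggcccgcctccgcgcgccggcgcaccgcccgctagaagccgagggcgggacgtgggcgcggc
Syvn1: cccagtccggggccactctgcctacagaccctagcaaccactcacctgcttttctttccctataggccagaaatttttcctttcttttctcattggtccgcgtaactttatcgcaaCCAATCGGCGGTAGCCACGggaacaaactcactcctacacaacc
Creld2: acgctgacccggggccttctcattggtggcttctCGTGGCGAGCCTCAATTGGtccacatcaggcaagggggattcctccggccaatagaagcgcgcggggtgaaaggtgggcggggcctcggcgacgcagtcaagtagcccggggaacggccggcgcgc
Hspa5: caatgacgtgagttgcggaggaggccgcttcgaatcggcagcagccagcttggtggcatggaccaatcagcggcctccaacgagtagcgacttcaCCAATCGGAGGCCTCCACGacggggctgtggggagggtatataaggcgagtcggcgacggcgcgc
They lie at chr11:50325674-50325833 (Canx, minus strand), chr12:17266429-17266588 (Pdia6, plus), chr19:6046416-6046575 (Syvn1, plus), chr15:88819486-88819645 (Creld2, plus, element on the opposite strand) and chr2:34771930-34772089 (Hspa5, plus).

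**Figure D3:**
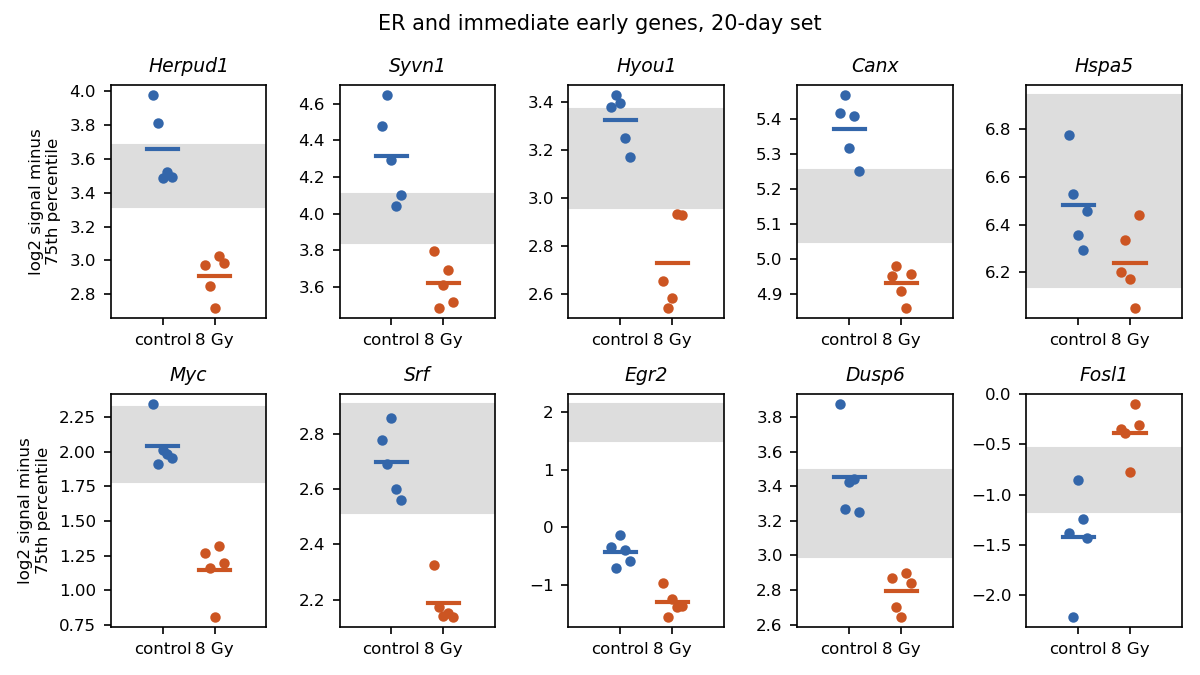
Log2 signal relative to the 75th percentile for 5 genes of the unfolded protein response and 5 immediate early genes on the 5 control (blue) and 5 8 Gy (orange) arrays; lines are group means and grey bands span the 10-day set. The 8 Gy arrays lie below the control arrays and the band for Herpud1, Syvn1, Hyou1, Canx, Myc, Srf, Egr2 and Dusp6, overlap the control arrays for Hspa5 and lie above them for Fosl1. With spike-in scaling Syvn1, Hyou1, Canx, Srf and Dusp6 turn to small rises, and Herpud1, Myc and Egr2 do not pass.

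Immediate early genes are induced within minutes of serum or growth factor addition. After 24 hours with serum 10 of 26 tested were lower and 1 higher with 8 Gy serum, against 28.8% and 17.3% of all genes. The median of the list was −0.18, 0.01 with cyclic loess, where 8 fell and 3 rose, and 0.55 on the spike-in scale. In 5 of the 10 the 8 Gy arrays lay below the other 15, beside the 10.8% of all genes that fell. Myc (chromosome 15, 61985341 to 61990361), a driver of growth and proliferation, lay at 2.34, 1.91, 2.01, 1.99 and 1.95 with control serum and at 1.27, 1.16, 0.81, 1.32 and 1.19 with 8 Gy serum. The 8 Gy arrays were below all other 15, and the change was −0.89 ± 0.10 (adjusted p = 2.26e-06); its other 2 probes gave −0.46 (adjusted p = 0.00141) and −0.38 (adjusted p = 0.147). Srf, which binds the serum response element, fell from 2.78, 2.69, 2.86, 2.60 and 2.56 to 2.33, 2.17, 2.14, 2.15 and 2.14 (change −0.51 ± 0.07, adjusted p = 1.22e-05). Egr2 and Egr1 fell by 0.87 and 0.60 (adjusted p = 1.53e-05 and 0.00127), and both stood far below their 10-day levels in both groups (1.42 to 2.13 and 1.03 to 1.53 against 3.91 to 4.35 for Egr1). The MAP kinase phosphatases Dusp6 and Dusp1 fell by 0.66 and 0.76 (adjusted p = 9.1e-05 and 2.31e-05). Fos and Jun did not pass, with 0.06 ± 0.14 and −0.03 ± 0.09. Fosl1 (FRA-1), an AP-1 subunit, was the 1 gene of the list that rose, from −1.38, −2.22, −0.86, −1.24 and −1.44 to −0.35, −0.39, −0.78, −0.10 and −0.31 (change 1.04 ± 0.19, adjusted p = 0.000192).

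The 8 Gy arrays stood outside all other arrays in some further genes, of which Dusp3, Edn1 and Thbs1 were chosen after their values were seen. Dusp3 (chromosome 11, 101971141 to 101987013), a phosphatase of MAP kinases, lay at −2.38, −2.62, −2.48, −2.01 and −2.19 with control serum and at −1.0, −0.78, −1.06, −1.01 and −0.89 with 8 Gy serum, and the 10-day arrays at −2.18 to −1.90. Its change was 1.39 ± 0.10, 2.61-fold (adjusted p = 1.1e-08). Grem1, a secreted antagonist of bone morphogenetic proteins, had 0.47 to 1.13 on control arrays and 1.46 to 1.89 on 8 Gy arrays and rose by 0.91 ± 0.14 (adjusted p = 3.21e-05). Endothelin-1 (Edn1) fell by 0.80 and the stress cytokine Gdf15 by 0.55 (adjusted p = 3.65e-06 and 0.000454). Thbs1, thrombospondin-1, fell on its brightest probe from 6.15, 6.75, 6.40, 5.79 and 6.30 to 5.02, 5.08, 5.10, 5.38 and 5.27 (change −1.11 ± 0.13, adjusted p = 2.03e-06), but its other 2 probes rose by 0.42 and 1.28, and the mean over probes changed by 0.20 (adjusted p = 0.0335), so the direction of Thbs1 rests on the probe.

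The probes of 1 gene gave a check that does not depend on the choice of probe. Of 4705 named genes with at least 2 tested probes, 381 had every probe called upward and 510 every probe called downward. In 493 the probes were called in opposite directions, and in 1046 none was called. The dimmer probe tended to give the higher change: the median change was −0.16 for the brightest probe of a gene and 0.11 for the dimmest, and the dimmest was the higher in 67.1% of genes. The genes described next had all probes called in 1 direction and also passed with cyclic loess and with the slide as a random block, which 266 genes did upward and 337 downward.

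Among these, the 12 with the largest rises were Ptms, Kng1, Khsrp, Serpina3f, Grn, Tbc1d20, Igfbp4, Cant1, Rnf216, Il6ra, Tfe3 and Kirrel. Tbc1d20, a GTPase-activating protein for RAB1, had closely grouped values, −0.96, −0.99, −1.15, −1.35 and −1.24 with control serum and 0.69, 0.64, 0.70, 0.62 and 0.58 with 8 Gy serum. The control arrays were below and the 8 Gy arrays above all others, and the change was 1.78 ± 0.07 (3.44-fold, adjusted p = 1.66e-12), with 1.64 on its other probe. Kng1, kininogen, the precursor of bradykinin, lay at −2.23, −2.72, −4.13, −1.88 and −2.03 with control serum and at −0.44, −0.35, −0.12, −0.33 and −0.44 with 8 Gy serum. Its change was 2.26 ± 0.30 (adjusted p = 9.8e-06), and 0.75 on its other probe. Progranulin (Grn), a secreted growth factor that also serves lysosomes, rose by 1.80 ± 0.11 on its brightest probe and by 0.34 on the other, and its control arrays (6.05 to 6.79) lay far below the 10-day arrays (8.21 to 8.59) while the 8 Gy arrays (8.20 to 8.37) lay among them. Parathymosin (Ptms) and the RNA-binding protein gene Khsrp rose by 2.34 ± 0.25 and 2.04 ± 0.33, and by 0.70 and 0.72 on their other probes, with control arrays below all others and 8 Gy arrays (2.14 to 3.21 for Khsrp) under the 10-day range or in its lower part (3.52 to 5.42 for Khsrp). Igfbp4, which binds insulin-like growth factors, rose by 1.54 ± 0.21 and 1.53 on its 2 probes. Tfe3, a transcription factor for lysosomal genes, rose on 3 probes, by 1.39, 2.10 and 1.08. Cant1, a nucleotidase of the Golgi, and Kirrel, an adhesion molecule, rose by 1.49 ± 0.11 and 1.31 ± 0.19. The ubiquitin ligase gene Rnf216 changed by 1.44 ± 0.38 (adjusted p = 0.00496) with overlap, and by 0.40 (adjusted p = 0.408) without the 3 control arrays of the first slide.

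The 12 largest falls on all probes were of 4921524J17Rik, Fgf21, Prl2c3, Taf7l, Kcnd2, Klhl9, Nppb, Prl2c5, Gsg1, Cnih4, Coch and Rbm48. Fgf21, a hormone of the stress response that ATF4 switches on, lay at −0.13, −0.39, −0.30, 0.04 and −0.30 with control serum and at −1.36, −1.49, −1.80, −1.74 and −1.18 with 8 Gy serum, the latter below all other arrays. The change was −1.30 ± 0.18 (2.46-fold lower, adjusted p = 1.77e-05), and −0.85 on its other probe. The potassium channel gene Kcnd2 was likewise lowest with 8 Gy serum (−4.72 to −3.75, against −3.24 to −2.69 and −1.59 to −1.04 in the 10-day set). Nppb, brain natriuretic peptide, fell from −1.68, −2.52, −1.93, −2.36 and −2.62 to −3.14, −3.41, −3.42, −3.79 and −3.51 (change −1.23 ± 0.17, adjusted p = 1.58e-05), and its other probe changed by −1.43. Prl2c3 and Prl2c5, proliferin genes of the prolactin family, fell by 1.29 and 1.23 on their brightest probes, but they are near-identical copies whose signals cannot be told apart. Coch, an extracellular matrix protein gene, fell by 1.14 (adjusted p = 6.65e-07) and was much lower in the 10-day set (−1.99 to −1.33). Cnih4, which helps receptors to leave the ER, fell by 1.14, with 1.73 to 2.67 on control arrays and 0.22 to 1.73 on 8 Gy arrays. The changes were −1.30 for 4921524J17Rik, −1.27 for Taf7l, −1.24 for the ubiquitin ligase adaptor gene Klhl9, −1.14 for Gsg1 and −1.12 for Rbm48. In all of these except Fgf21, Kcnd2 and Gsg1 the control arrays lay above all other 15 arrays.

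Among genes with 1 tested probe, 756 rose and 1290 fell under the same conditions, and the largest rises exceeded those above. Lars2 (chromosome 9, 123366927 to 123462675), the mitochondrial leucyl-tRNA synthetase, lay at 5.11, 5.36, 4.70, 4.62 and 5.30 with control serum and at 9.0, 9.05, 8.98, 8.82 and 8.86 with 8 Gy serum. The 10-day arrays lay at 8.79 to 9.16, so the control arrays of the 20-day set stood apart. The change was 3.92 ± 0.12 (15.2-fold, adjusted p = 4.7e-14). Of the other 18 mitochondrial aminoacyl-tRNA synthetases tested 3 rose and 2 fell, against 17.3% and 28.8% of all genes. The 28S ribosomal RNA gene Rn28s1 moved with it, from −5.96, −3.59, −4.91, −4.42 and −3.99 to −0.17, 0.03, 0.23, 0.79 and 0.36 (change 4.82 ± 0.34), and was well above background on 4 of 5 control arrays. Whether the rise of Lars2 and that of Rn28s1 are connected was not tested. Syt10, a synaptotagmin, changed by 4.55 ± 0.34, Tfap2e by 4.07 ± 0.44 and Foxq1, both transcription factor genes, by 3.22 ± 0.46. Grin2d, a glutamate receptor subunit, changed by 2.77 ± 0.35 and Samd1, a chromatin protein, by 2.58 ± 0.28. In Lars2, Syt10, Tfap2e, Foxq1, Grin2d and Samd1 the 20-day control arrays lay below all other arrays. For Tfap2e, Foxq1 and Grin2d the 8 Gy arrays 4 and 5, which shared a slide, were higher than 8 Gy arrays 1 to 3. Cemip, a hyaluronan-degrading protein, and Fam110a rose by 2.02 ± 0.22 and 2.00 ± 0.40, again with the control arrays apart, and Serpina3n and Camp, described above, completed the 10.

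The 10 largest falls on a single probe were of Ostn, Lgals7, Cst6, Nrgn, Gsta2, Foxred2, Caap1, Cacybp, Rab3b and Hdac2. Osteocrin (Ostn), a secreted peptide of bone and muscle, fell by 1.76 (3.39-fold lower, adjusted p = 4.35e-07), from −0.22, 0.42, −0.19, 0.55 and −0.17 to −1.47, −1.26, −1.82, −2.15 and −1.72. Hdac2, a histone deacetylase, gave −0.27, −0.36, −0.30, −0.38 and −0.43 with control serum and −1.62, −1.36, −1.51, −1.44 and −1.64 with 8 Gy serum, with control arrays above and 8 Gy arrays below all others (change −1.16 ± 0.08, adjusted p = 6.97e-09). Cacybp, a calcyclin-binding protein gene, fell by 1.19 (−0.92 with cyclic loess). Gsta2, a glutathione transferase, fell by 1.24 and the cystatin gene Cst6 by 1.24, both with the control arrays highest. Neurogranin (Nrgn) fell by 1.24 with the 8 Gy arrays lowest. Galectin-7 (Lgals7), Foxred2, Caap1 and Rab3b changed by −1.29, −1.22, −1.19 and −1.18, and the groups overlapped for Foxred2 (down to −1.60 on control arrays, up to −1.48 on 8 Gy arrays).

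**Figure D4:**
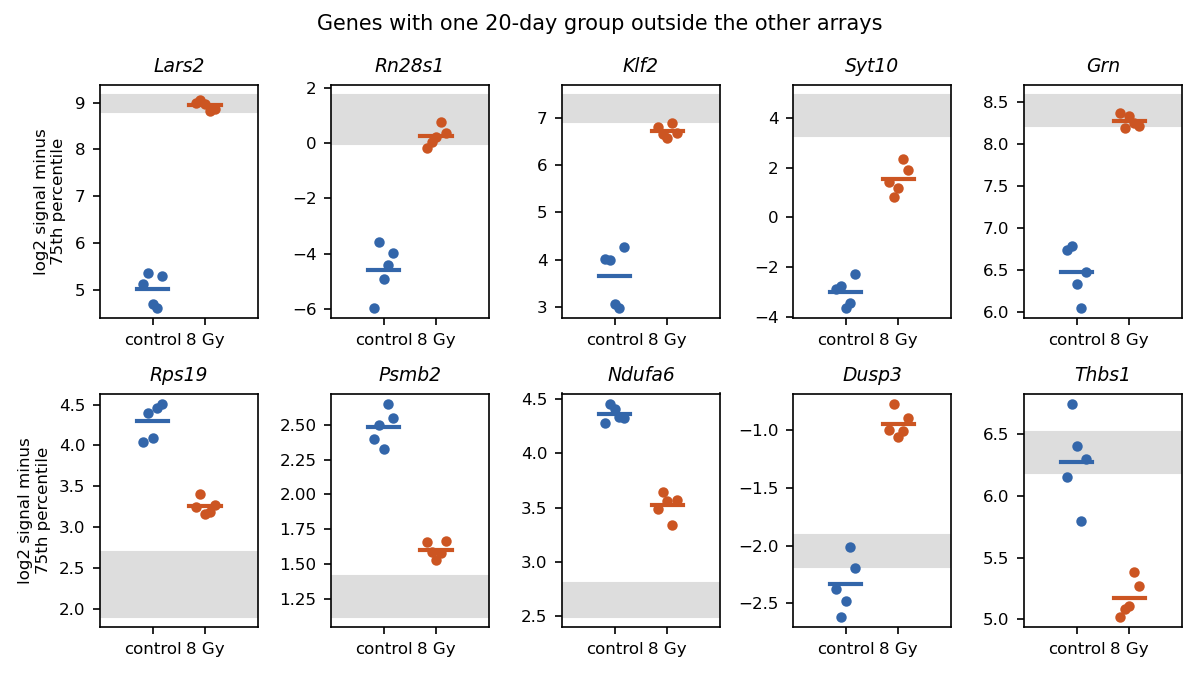
Log2 signal relative to the 75th percentile for 10 genes on the 5 control (blue) and 5 8 Gy (orange) arrays of the 20-day set, with group means as lines and the range of the 10-day set as a grey band. In Lars2, Rn28s1, Klf2, Syt10 and Grn the control arrays are the lowest and in Rps19, Psmb2 and Ndufa6 the highest of the series, while in Dusp3 and Thbs1 the 8 Gy arrays are outside the band and the controls. Each gene is drawn by its brightest probe, and other probes changed by −0.04 for Klf2 and by 0.42 and 1.28 for Thbs1.

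Klf2, a transcription factor of endothelial and lymphoid quiescence, had the largest rise among the Kruppel-like factors. It lay at 4.01, 3.99, 3.05, 2.98 and 4.26 with control serum and at 6.81, 6.65, 6.58, 6.89 and 6.67 with 8 Gy serum, near the 10-day arrays (6.91 to 7.48). The change was 3.06 ± 0.20 (adjusted p = 3.68e-09) on its brightest probe, while its other probe gave −0.04 (adjusted p = 0.863). The rise of Klf2 therefore rests on 1 of 2 probes.

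More genes of the cell cycle fell than rose with 8 Gy serum on the 75th percentile scale, as among all genes (28.8% and 17.3%). Of 39 DNA replication genes 17 fell and 4 rose (median −0.22, and −0.04 with cyclic loess), and of 35 genes of mitosis and G2/M 13 fell and 4 rose (median −0.22, and −0.05 with loess); on the spike-in scale both medians turned (0.52 and 0.52). Survivin (Birc5), of the chromosomal passenger complex, lay at 6.17, 5.98, 5.76, 5.84 and 5.87 with control serum and at 5.09, 5.15, 5.11, 5.29 and 5.05 with 8 Gy serum, without overlap (change −0.79 ± 0.12, adjusted p = 4.11e-05). The mitotic kinases Aurka and Plk1 fell by 0.68 and 0.47 (adjusted p = 0.000192 and 0.00241). With normexp neither passed (adjusted p = 0.0927 and 0.531), and Plk1 did not with quantile normalisation (adjusted p = 0.0613). Ect2, needed for cytokinesis, fell by 0.72 and 1.03 on its 2 probes. Cenpe, a kinetochore motor, fell by 0.62 on its brightest probe, but its other probes gave 0.01 and 0.29. The mitotic motor Kif2c went the other way, −2.23 to −1.40 on control arrays and −1.06 to −0.72 on 8 Gy arrays (change 0.91 ± 0.17, adjusted p = 0.000207). Mki67, the proliferation marker, changed by −0.31 ± 0.09 (adjusted p = 0.00874, and 0.0728 with the slide block), with −0.09 under cyclic loess and a rise of 0.43 on its other probe, so it gave no settled direction.

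In replication, the helicase subunit gene Mcm4 fell from 4.75, 4.60, 4.46, 4.16 and 4.42 to 3.93, 3.87, 3.87, 4.00 and 3.85, below all other arrays (change −0.57 ± 0.08, adjusted p = 2.68e-05). Its partner Mcm3 rose by 0.40 ± 0.09 (adjusted p = 0.00119). Pcna, the sliding clamp, and Orc6, of the origin recognition complex, fell by 0.54 and 0.82 (adjusted p = 1.95e-05 and 3.04e-07), with the control arrays highest. Cyclin E2 (Ccne2), which drives entry into S phase, fell by 1.08 and 0.77 on its 2 probes. The loess changes were −0.50 for Birc5, −0.46 for Aurka, −0.33 for Mcm4, −0.27 for Pcna, −0.61 for Orc6 and −1.12 for Ccne2.

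The cultures were not irradiated themselves, as far as the labels say, and targets of p53, which irradiated cells switch on, are given for this reason. Of 29 tested 2 rose and 10 fell (median −0.16, and 0.58 on the spike-in scale), against 17.3% and 28.8% of all genes. The cell cycle inhibitor Cdkn1a (p21) lay at 3.55, 3.74, 3.57, 3.27 and 3.38 with control serum and at 3.63, 3.59, 3.50, 3.50 and 3.40 with 8 Gy serum, a change of 0.02 ± 0.09 (adjusted p = 0.862; 0.23 with cyclic loess, adjusted p = 0.0254). Mdm2, the negative regulator of p53, changed by 0.46 ± 0.25 (adjusted p = 0.145); control arrays 4 and 5 (3.18 and 2.92) lay within the 8 Gy range and arrays 1 to 3 below 2.00, and without array 4 or 5 the change passed (0.68 and 0.62), as did its other probe (0.51, adjusted p = 0.000105). Sesn2, a stress-induced antioxidant gene, rose by 0.58 ± 0.06 (adjusted p = 1.24e-06), while Perp, a membrane effector of p53, and Gadd45a fell by 0.65 and 0.62 (adjusted p = 1.23e-06 and 0.00978). Of 38 genes of DNA damage signalling and repair 6 rose and 14 fell (median −0.03, and 0.70 on the spike-in scale), against the same shares of all genes. Xpa, of nucleotide excision repair, fell by 0.94 (adjusted p = 6.59e-08). The checkpoint kinase gene Chek1 fell on both probes, by 0.70 and 0.75, and Brca2, of homologous recombination, by 0.63 on 1 probe while the other gave 0.45 (adjusted p = 0.251).

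Extracellular matrix genes, which define fibroblasts, changed in both directions. Of 14 tested matrix metalloproteinases 5 rose and 2 fell (median 0.61), against 17.3% and 28.8% of all genes. Mmp2, a gelatinase, lay at 2.09, 2.29, 2.06, 1.45 and 1.92 with control serum and at 2.79, 2.92, 3.18, 3.16 and 2.84 with 8 Gy serum (change 1.02 ± 0.15, adjusted p = 2.58e-05), and its control arrays were the lowest of the series. The collagenase gene Mmp13 rose by 1.53 ± 0.36 (adjusted p = 0.00212) without overlap. Mmp14, the membrane protease that activates Mmp2, fell by 0.39 on its brightest probe and rose by 0.59 on the other, and was −0.10 with loess, so its direction is not settled. Timp3, a matrix-bound inhibitor, had 6.24 to 6.83 on control arrays and 5.69 to 5.85 on 8 Gy arrays, the latter below all other arrays, and fell by 0.73 (adjusted p = 2.92e-06); on the spike-in scale this was 0.01.

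Of 16 basement membrane genes 5 rose and 2 fell (median 0.15), and of 16 fibrillar and associated collagens 3 rose and 3 fell (median 0.10, and 0.38 with cyclic loess, where 9 rose and 1 fell). Of all genes 17.3% rose and 28.8% fell, and with cyclic loess 3869 rose and 4813 fell of 20229. Col4a2 rose by 1.13 ± 0.16 and 1.26 on its 2 probes, and the laminin gene Lamb2 from 2.03, 2.24, 2.06, 2.10 and 1.96 to 2.95, 2.82, 2.91, 2.83 and 2.73 (change 0.77 ± 0.07, adjusted p = 2.87e-07). Fibronectin (Fn1) rose on 3 probes, by 0.53, 1.14 and 1.11. Type I collagen (Col1a1) did not pass on its brightest probe (0.06 ± 0.07, adjusted p = 0.553), while its other 2 probes rose by 0.36 and 0.89. Biglycan (Bgn) and fibrillin-2 (Fbn2) rose by 0.87 ± 0.12 and 1.07 ± 0.18 (adjusted p = 1.74e-05 and 0.000136). The smooth muscle actin gene Acta2, the marker of myofibroblasts, changed by −0.19 ± 0.08 (adjusted p = 0.0675, and 0.0402 with the replicate number as a block); it was 0.21 with loess (adjusted p = 0.0174) and −0.24 without 8 Gy array 1 or control array 5 (adjusted p = 0.0302 and 0.0277), and its other probes gave 0.09 and −0.78. In Mmp2, Col4a2, Lamb2, Fn1, Bgn and Fbn2 the control arrays were below all other arrays.

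Genes of mitochondria, ribosomes and the proteasome fell together on the 75th percentile scale, and these are bright genes. On this scale 28.8% of all genes fell and 17.3% rose, and in the brightest of the 10 groups 54.1% and 4.5%. Of 34 subunits of respiratory complex I 24 fell and 1 rose (median −0.37, and −0.10 with cyclic loess, where 11 fell and 1 rose). Of 38 subunits of complexes II to V 22 fell and 0 rose (median −0.29, and 0.01 with loess, where 7 fell and 4 rose). Of 76 mitochondrial ribosomal protein genes 46 fell and 2 rose (median −0.34, and −0.15 with loess), and of 31 proteasome subunits 19 fell and 2 rose (median −0.36, and −0.11 with loess). Of 67 cytosolic ribosomal protein genes 26 fell and 3 rose, but with loess 27 rose and 7 fell, and the median turned from −0.16 to 0.20. On the spike-in scale the medians of all 5 lists were above 0. The control arrays were above all other arrays in 13 of the 24 complex I genes that fell, 15 of 22, 29 of 46, 16 of 19 and 17 of 26, in the order above, against 2546 of all 5819 genes that fell (43.8%).

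Some members kept a fall of over 0.40 with loess. Ndufa6, of complex I, lay at 4.28, 4.45, 4.41, 4.34 and 4.32 with control serum and at 3.49, 3.65, 3.56, 3.35 and 3.57 with 8 Gy serum, and at 2.50 to 2.81 in the 10-day set (change −0.84 ± 0.07, adjusted p = 7.13e-08, and −0.64 with loess). The succinate dehydrogenase subunit gene Sdhc fell by 0.81 (loess −0.61). The proteasome gene Psmb2 fell from 2.40, 2.50, 2.32, 2.65 and 2.55 to 1.66, 1.58, 1.53, 1.58 and 1.67 (change −0.88 ± 0.07, adjusted p = 6.59e-08, and −0.76 with loess) and Psma3 by 0.74 (loess −0.52). Rps19, a small-subunit protein, fell by 1.05 (adjusted p = 5.18e-07, and −0.87 with loess), and in all of these the 10-day arrays lay still lower than the 8 Gy arrays.

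**Figure D5:**
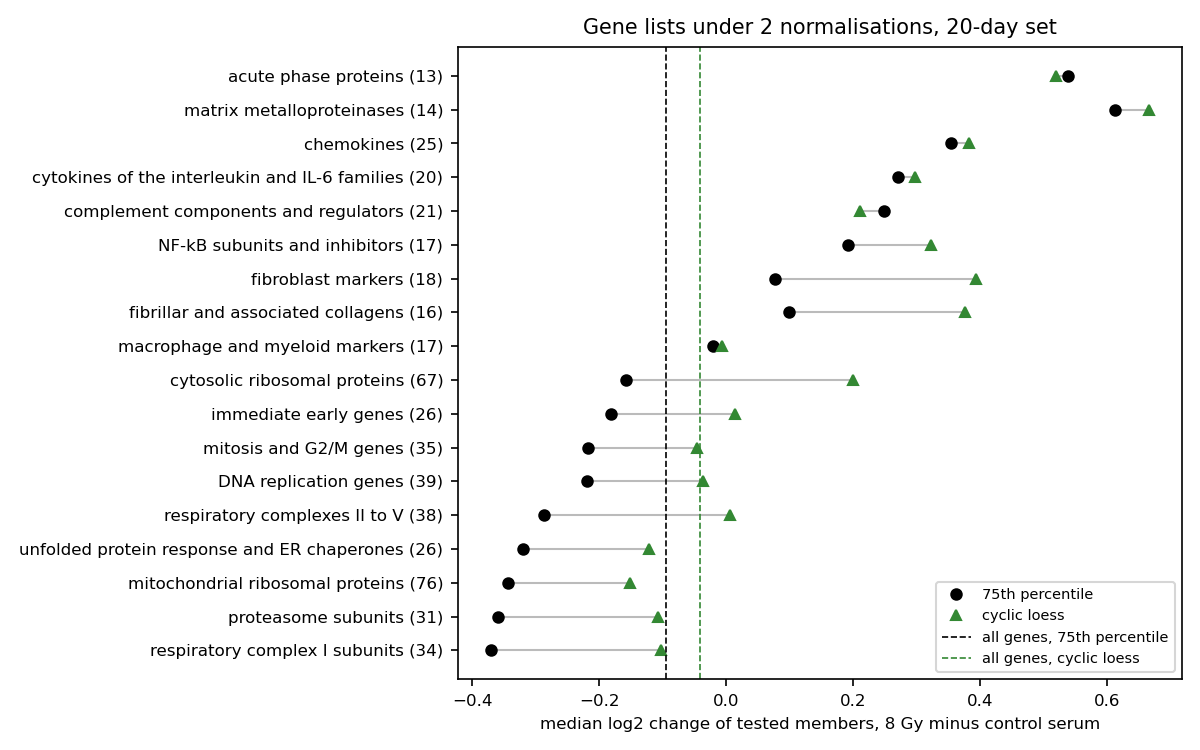
Median log2 change (8 Gy minus control serum) of the tested members of 18 gene lists, with the number tested in brackets, on the 75th percentile scale (circles) and with cyclic loess (triangles); dashed lines are the medians of all genes. Acute phase genes, metalloproteinases and chemokines lie above 0.3 on both (with normexp, not drawn, at 0.13, 0.30 and 0.12), while cytosolic ribosomal proteins, immediate early genes and complexes II to V change sign, and on the spike-in scale every median lies higher by about the 0.74 given in the text.

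The fibroblast identity of the cultures was checked with marker lists. Between the 2 serums 17.3% of all genes rose and 28.8% fell. All 18 tested fibroblast markers were well above background on all 10 arrays, with 5 higher and 2 lower with 8 Gy serum (median 0.08, and 0.39 with loess). Thy1, a surface marker of fibroblasts, lay at 6.41, 5.88, 6.06, 6.55 and 6.52 with control serum and at 6.53, 6.29, 6.45, 6.19 and 6.19 with 8 Gy serum and did not pass. Of 9 endothelial markers 0 rose and 5 fell, but 1 fell with the slide as a random block and 0 with normexp. Esam, an adhesion molecule, fell by 1.00 (adjusted p = 0.00161), and with normexp changed by −0.14 (adjusted p = 0.504). Of 13 epithelial markers 0 rose and 1 fell, of 22 muscle markers 1 rose and 3 fell, of 16 cartilage and bone markers 2 rose and 6 fell, and of 14 osteoclast and dendritic markers 2 rose and 1 fell. On the spike-in scale the medians of these 5 lists were all above 0. Of 7 lymphoid and erythroid markers 2 rose, among them platelet factor 4 (Pf4), by 0.74 ± 0.20 (adjusted p = 0.00543, and 0.0627 with the slide block), which macrophages also make.

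The change with 8 Gy serum was set against the change with 4 Gy serum of the 10-day set, each against its own controls. The difference of the 2 changes passed in 6915 genes (34.2%), 2470 upward and 4445 downward, and in 65 when the arrays of a slide were averaged. Dose, days and slides differ together between the sets and cannot be told apart. Of the acute phase genes Lcn2, Saa3 and Serpina3n had positive changes in both, with 2.53 with 4 Gy and 3.21 with 8 Gy serum for Lcn2, 2.02 and 2.39 for Saa3, and 1.57 and 1.83 for Serpina3n, with adjusted p-values of the difference of 0.699, 0.815 and 0.752. Hpx had 0.29 with 4 Gy and −0.36 with 8 Gy serum (adjusted p of the difference 0.02). The standard errors of the first 3 differences were 1.21, 1.04 and 0.57, so these do not show that the responses are equal. Genes with a difference that passed included Tbc1d20 (−0.07 with 4 Gy serum, difference 1.85, adjusted p = 5.37e-10), Herpud1 (−0.08, difference −0.67, adjusted p = 0.00161) and Myc (−0.30, difference −0.60, adjusted p = 0.00427).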

How the data were processed

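Agilent 1-colour arrays of 20 cultures were scanned and read with Feature Extraction 10.5.1.1 per the file headers (11.0 per the submitters' processing notes). The authors deposited scanner files with the processed signal of each spot, an intensity after background subtraction and spatial detrending per the file headers, with raw median intensities, and with other marks of 0 or 1 per spot per the file headers (saturated, outlier, well above background). Their deposited table of log2 values, of unstated scale and centred per probe within each set, served as an alternative. Groups came from the titles.

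Outlier spots were left out and spots of a probe averaged; log2 intensities were centred on each array's 75th percentile over non-control probes. A probe was tested if well above background on all 5 arrays of a group, and the brightest probe stood for its gene. Of 41174 probes 24836 had a gene name, for 17174 genes, by matching the accessions in the files to RefSeq tables, and unnamed probes stood for themselves. The test was limma 3.58.1 (R 4.3.3) with 4 group means over 20 arrays, two-sided, with Benjamini-Hochberg adjustment over all genes and a threshold of 0.05. On simulated data with 200 changed genes among 20230, 33 of 33 genes set at a log2 change of −2, 29 of 33 at −1 and 12 of 33 at −0.5 were recovered, as were 31 of 33 at 2, 26 of 34 at 1 and 13 of 34 at 0.5, with 11 false calls. The simulated arrays had independent noise, without slide effects or a trend with brightness, so these counts do not measure false calls from such effects.

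Genes named are the 12 highest and 12 lowest changes with all probes called, and the 10 highest and lowest with 1 probe, each also past the threshold with cyclic loess and the slide as a random block; for each list at most the 5 with the smallest adjusted p in each direction and members that define it; and Lars2, Rn28s1, Cdkn1a, Mki67, Acta2, Col1a1, Il6 and Ccl2. The comparison, lists and rules were chosen with earlier results of these data known. The titles give both groups replicate numbers 1 to 5, and arrays of the same number deviated together from their group means (correlations 0.147 to 0.463 over 16885 genes). Only 2 arrays correlated best with the array of their own number, and the numbers follow the division over slides in both groups. A fit with the number as a block was an alternative. The others were array median, quantile, cyclic loess, spike-in (8 probes) and normexp (offset 50) scaling, no or a stricter filter, the mean over probes, the 20-day arrays alone, slide as a random block or averaged, the authors' table, and leaving out each array.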

Additional observations from a re-analysis of the deposited data

Results flagged for a closer look

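Single arrays that stood far from the other 4 of their group were checked in 327 groups of 5 arrays (log2 signal of a gene relative to the 75th percentile), of which chance alone is expected to mark about 1 in 20. Such arrays were found in 20 groups. The 8 Gy serum array 1 stood apart at −1.68 for Il33, −1.66 for Icam1, −3.72 for Ccl11, 2.33 for Srf, −0.68 for Rnf216 and −3.67 for H1f3. The 8 Gy serum array 2 stood apart at −3.72 for Taf7l and −3.0 for Cemip. The 8 Gy serum array 3 stood apart at 1.37 for Atf6. The 8 Gy serum array 4 stood apart at 1.46 for Grem1. The 8 Gy serum array 5 stood apart at 0.49 for Coch and 5.15 for Pdia6. Control serum array 1 stood apart at 2.34 for Myc, 1.52 for Xpa, 5.36 for Psma3, 5.11 for Hsp90b1 and 1.49 for Gsta4. Control serum array 2 stood apart at 4.25 for Atf4 and −1.25 for Ccne2. Control serum array 5 stood apart at −1.93 for Grin2d.

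The change with 8 Gy serum (20-day set) was also compared with the change with 4 Gy serum (10-day set) in each gene named in the text, by the difference of the 2 log2 changes (8 Gy minus 4 Gy) in the limma fit. It passed an adjusted p of 0.05 in 113 of 164 genes, and in 34.2% of all genes. Most of the 164 were named for their change with 8 Gy serum, which is 1 part of this difference. A share above that of all genes was thus built in by the choice and says nothing about these genes. Among acute phase genes the difference was −0.64 for Hpx. Among complement genes the difference was 0.76 for Serping1 and −0.64 for C2. For interleukin-6 family and NF-kB genes the difference was 1.40 for Clcf1, 1.23 for Il6ra, 1.12 for Ikbkb, 0.62 for Ikbke, 0.59 for Nfkb2 and −0.80 for Tslp. For chemokines the difference was 0.83 for Ccl6, 0.66 for Cxcl12 and −0.97 for Ccl17. In the unfolded protein response the difference was 1.1 for Ppp1r15a, −0.33 for Creld2, −0.37 for Manf, −0.49 for Hyou1, −0.52 for Canx, −0.53 for Eif2ak3, −0.57 for Chac1, −0.60 for Edem1, −0.61 for Atf6, −0.63 for Syvn1, −0.67 for Herpud1 and −0.96 for Ddit3. For immediate early genes and Klf2 the difference was 3.03 for Klf2, 1.13 for Fosl1, −0.33 for Srf, −0.55 for Dusp1, −0.60 for Myc, −0.64 for Egr2, −0.65 for Dusp6 and −0.75 for Egr1. For genes chosen after their values were seen and Grem1 the difference was 1.38 for Dusp3, 1.28 for Grem1, −0.59 for Edn1 and −1.03 for Thbs1. For genes whose probes all changed one way the difference was 2.09 for Ptms, 1.86 for Grn, 1.85 for Tbc1d20, 1.80 for Cant1, 1.68 for Kng1, 1.47 for Kirrel, 1.24 for Tfe3, 1.21 for Igfbp4, −0.80 for Fgf21, −0.92 for Rbm48, −0.96 for 4921524J17Rik, −1.04 for Coch, −1.08 for Kcnd2, −1.31 for Taf7l, −1.42 for Nppb, −1.43 for Cnih4, −1.49 for Klhl9 and −1.90 for Gsg1. For genes with a single tested probe the difference was 5.17 for Syt10, 3.98 for Lars2, 3.72 for Tfap2e, 3.25 for Foxq1, 2.87 for Fam110a, 2.55 for Grin2d, 1.99 for Cemip, 1.60 for Samd1, −0.92 for Rab3b, −0.96 for Foxred2, −1.01 for Cacybp, −1.02 for Caap1, −1.13 for Cst6, −1.17 for Hdac2, −1.26 for Gsta2, −1.28 for Lgals7, −1.41 for Nrgn and −1.92 for Ostn. In cell cycle, p53 and repair genes the difference was 0.94 for Kif2c, 0.53 for Sesn2, 0.35 for Mcm3, −0.43 for Mcm4, −0.46 for Pcna, −0.56 for Brca2, −0.59 for Cenpe, −0.61 for Birc5, −0.69 for Perp, −0.74 for Ccne2, −0.79 for Orc6, −0.88 for Chek1, −0.91 for Ect2 and −1.14 for Xpa. In matrix genes the difference was 1.26 for Fbn2, 1.14 for Col4a2, 0.86 for Fn1, 0.86 for Bgn, 0.82 for Lamb2, 0.73 for Mmp2, −0.45 for Mmp14 and −0.67 for Timp3. In mitochondrial, ribosomal and proteasome genes the difference was 4.39 for Rn28s1, −0.75 for Psma3, −0.84 for Psmb2, −0.86 for Sdhc, −0.99 for Ndufa6 and −1.48 for Rps19. Among markers of cell types the difference was −0.60 for Lyz2, −0.80 for Ptprc, −0.85 for Tyrobp and −1.20 for Esam. For the remaining genes the difference was 1.74 for H1f4, 1.27 for Irf7, 0.67 for Fdft1, 0.64 for Tap1, 0.44 for Gpx3, −0.48 for Gsr, −0.52 for Sod1, −0.82 for Gsta4 and −0.89 for H1f3. Dose, days and slides differ together between the sets and cannot be told apart.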

How the results depend on the processing

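The 9312 genes past the threshold between the 2 serums became 15860 with spike-in scaling, 5913 with the slide as a random block and 2934 when the arrays of a slide were averaged; leaving out 1 array gave 8550 to 9758. The 6915 genes in which the 8 Gy and 4 Gy changes differed became 13641, 3622 and 65 under the same 3 settings, the last chosen after seeing the data, and 6107 to 7796 with 1 array left out. The median change of the dimmest of 10 groups of genes minus that of the brightest was 0.31 and moved to 0.12 with quantile normalisation and to 0.0753 with cyclic loess. The 891 genes with all probes called one way became 3200 with spike-in scaling and 529 with the slide block. Leaving out the 3 control arrays of the first slide, also chosen after seeing the data, gave 9446 calls. The replicate number as a block gave 9487 calls, 3562 upward and 5925 downward, made the fall of Acta2 pass (adjusted p = 0.0402) and changed no other call of a gene named in the text. Of the genes named in the text 40 lost their call when the arrays of a slide were averaged, 15 with normexp and 13 with the slide as a random block. With spike-in scaling 20 lost their call without turning, among them Herpud1 (−0.01), Myc (−0.16), Egr2 (−0.14), Birc5 (−0.05) and Ndufa6 (−0.10).

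Most reversals came with spike-in scaling, which adds 0.74 to every log2 change and so turns smaller falls: 0.38 for Hpx, 0.0645 for C2, 0.0596 for Tslp, 0.026 for Ccl17, 0.29 for Canx, 0.0442 for Syvn1, 0.14 for Hyou1, 0.29 for Manf, 0.10 for Eif2ak3, 0.0774 for Atf6, 0.02 for Ddit3, 0.49 for Hspa5, 0.50 for Atf4, 0.22 for Srf, 0.0743 for Dusp6, 0.14 for Egr1, 0.70 for Jun, 0.11 for Cenpe, 0.0568 for Aurka, 0.0173 for Ect2, 0.26 for Plk1, 0.16 for Mcm4, 0.20 for Pcna, 0.42 for Mki67, 0.0808 for Perp, 0.11 for Gadd45a, 0.0312 for Chek1, 0.11 for Brca2, 0.34 for Mmp14, 0.0067 for Timp3, 0.54 for Acta2, 0.69 for Lyz2, 0.13 for Ptprc, 0.0122 for Tyrobp, 0.43 for Pdia6, 0.40 for Creld2, 0.60 for Hsp90b1, 0.12 for Sod1, 0.24 for Gsr, 0.0072 for Gsta4 and 0.18 for Gdf15. With the mean over all probes of a gene the changes that turned were 0.16 for Edem1, 0.20 for Thbs1, 0.0585 for Mki67 and 0.10 for Mmp14. With cyclic loess it was 0.21 for Acta2. Under the array median, quantile, normexp, filter, slide, authors' table or leave-one-out settings no change of a named gene that passed in either fit turned. Changes that passed neither in the main fit nor in the setting were not counted as turned. The array median moves every change by −0.14, so small rises that did not pass take the other sign there. Beyond the named construction of each setting, the cause was not tested. Signal near background and 5 arrays a group limit the precision. In the 20-day set each slide held 1 group, so serum and slide cannot be told apart, and no slide setting separates them.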

Other observations

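Of 33 tested antioxidant genes that NRF2 controls 16 fell and 3 rose on the 75th percentile scale, where 28.8% of all genes fell and 17.3% rose (median −0.25). With cyclic loess 9 fell and 4 rose (median −0.06), and on the spike-in scale the median was 0.49. Superoxide dismutase 1 (Sod1) had 7.33, 7.54, 7.40, 6.96 and 7.09 on control arrays and 6.55, 6.85, 6.69, 6.55 and 6.62 on 8 Gy arrays. Its control arrays lay above all others, and its change was −0.61 ± 0.10 (adjusted p = 6.61e-05 in limma, −0.27 with loess). Glutathione reductase (Gsr) and the glutathione transferase gene Gsta4 fell by 0.50 and 0.73 (adjusted p = 0.000106 and 7.39e-06). The plasma glutathione peroxidase gene Gpx3 rose by 0.66 ± 0.12 (adjusted p = 0.000158).

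Of 34 tested interferon-stimulated genes 3 rose and 8 fell (median −0.20, and 0.53 on the spike-in scale), against 17.3% and 28.8% of all genes, so neither share exceeded that of all genes in this fit. Without the 3 control arrays of the first slide 2 rose and 13 fell (median −0.45), beside 3918 and 5528 of all 20229 genes. There the share that fell was above that of all genes. Irf7, the master regulator of interferon genes, changed by 0.95 ± 0.23 (adjusted p = 0.00228), but not past the threshold without the 3 control arrays of the first slide (0.0859). The peptide transporter gene Tap1 rose from −2.40, −2.48, −2.80, −2.86 and −2.50 to −1.82, −1.86, −1.67, −1.65 and −1.82 (0.84 ± 0.11, adjusted p = 8.28e-06), with control arrays lowest. Of 25 genes of cholesterol synthesis and uptake 7 rose and 8 fell (median −0.11); with cyclic loess 7 rose and 1 fell (median 0.11) and with quantile normalisation 7 rose and 0 fell. Squalene synthase (Fdft1) had 8 Gy arrays above all others (3.44 to 3.56, against 2.40 to 3.02 with control serum) and rose by 0.72 ± 0.10 (adjusted p = 2.04e-05). The linker histone gene H1f4 rose by 1.50 ± 0.09 (adjusted p = 2.37e-09), from −1.33, −1.39, −1.30, −1.29 and −1.28 on control arrays to 0.25, 0.36, 0.25, −0.01 and 0.07 on 8 Gy arrays. The linker histone gene H1f3 changed by −0.84 ± 0.10 on its brightest probe (adjusted p = 3.39e-06) and by 0.52 on the other (adjusted p = 0.00475), with a mean over probes of −0.16, so its direction is not settled.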
